A study of Homo sapiens with 6 samples.

Results

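Pyruvate dehydrogenase, the enzymes that switch it off and on, and the carrier that brings pyruvate into mitochondria were described as 10 genes: PDHA1, PDHB, PDK1, PDK2, PDK3, PDK4, PDP1, PDP2, MPC1 and MPC2. The members were taken by symbol from the annotation of the array's probe sets, and 9 of the 10 had a probe set, among 17687 genes in all. Each of the 9 had a single probe set. No probe set was annotated to PDP2, which is not analysed here beyond its promoter. Levels were measured on Affymetrix arrays in 4175 cells, a human MDA-MB-231 breast cancer line variant that is metastatic to the lung. Cells of the sicontrol group (3 samples) were given a control siRNA, and cells of the siPGC1alpha group (3 samples) an siRNA directed at PGC-1alpha, the coactivator encoded by PPARGC1A. Both groups were the same line, treated for 48 hours with an siRNA added 24 hours after the cells were plated. The labels number 3 replicates in each group and do not call them separate cultures. The p-values therefore reflect the spread of these samples alone, which could be technical.

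Pyruvate made by glycolysis enters mitochondria through a carrier of the paired proteins MPC1 and MPC2. The pyruvate dehydrogenase complex then converts it to acetyl-CoA for the tricarboxylic acid cycle. Kinases of the PDK family phosphorylate the E1 alpha subunit and switch the complex off, and the phosphatases PDP1 and PDP2 remove the phosphate and switch it on again. PDK1 is known as a target of the hypoxia-inducible factor HIF-1, and PDK4 as a gene that PGC-1alpha induces together with the receptor ERR alpha in rodent muscle cells.

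The array of siPGC1alpha replicate 1 stood apart and is given separately throughout. Its Pearson r with the other 5 arrays, taken across genes that are no replicates of one another, was 0.585 to 0.604, against 0.995 to 0.996 among those 5. Its negative control probe sets (612 sets that target no transcript) had a 95th percentile of 6.57 on the log2 scale, against 5.38 to 5.60 on the other arrays, and its 63 ERCC spike-in sets had a median of 6.50 against 5.04 to 5.11. The targeted gene PPARGC1A read 6.45, 6.49 and 6.49 on the controls, 6.52 and 6.47 on siPGC1alpha replicates 2 and 3, and 7.95 on replicate 1. Its deviation from the control mean on replicate 1 was 1.47, where genes of similar control level deviated by 0.53 to 1.56 (25th to 75th percentile). No array labelled siPGC1alpha thus lay below the lowest control for the gene the siRNA was directed against. The directions below cannot be tied to a lower PPARGC1A transcript. Its control mean of 6.48 exceeded the negative control percentile but was under the median over genes, 7.28 to 7.29 on the controls. Whether this probe set would register a lower transcript was not tested, so these readings do not show that the transcript was unchanged. Of the markers of a mesenchymal breast cancer line, 6 of 7 were measured, and all 6 exceeded the 95th percentile of the negative controls on every array, with VIM (vimentin) at a control mean of 12.80. Of 14 luminal and epithelial markers, 11 exceeded it on each of the 5 arrays, and CDH1 (E-cadherin), GRHL2 and PGR did not, with CDH1 at a control mean of 3.97. The log2 signals of these 14 markers summed to 99.3 to 100.4 on the controls, 100.4 to 100.5 on replicates 2 and 3 and 113.9 on replicate 1. Of the 9 measured leukocyte and endothelial markers, 7 exceeded the negative control percentile on each of the 5 arrays, as did 13164 of all 17687 genes. Exceeding it therefore does not set a marker apart. The signals of these 9 summed to 61.5 to 62.5, 61.5 to 61.9 and 68.6 in the same order. On replicate 1 both sums were the highest of any array. The sum over all genes was the highest on replicate 1 too, but by a far smaller share. It was 127958 there, against 127585 to 127788 on the controls and 127755 to 127769 on replicates 2 and 3. The median deviation of all genes from the control mean was 0.61 there. Of the first markers 2 of 14 lay below their control means, KRT18 (keratin 18) by -3.86 and EPCAM. Among the others KRT19 (keratin 19) deviated by 3.30 and FOXA1 by 2.59. Both lay above the 75th percentile of genes of similar control level, -0.23 and 1.60. KRT18 lay below the 25th percentile of such genes, -3.42. Of the second markers 1 of 9 lay below its control mean, CD68 by -2.81. The 6 mesenchymal markers each lay below their control mean there. Their sum was 54.1, against 68.2 to 68.5 on the controls and 68.3 to 68.6 on replicates 2 and 3. They are bright, and genes of similar control level had median deviations of -1.34 or -2.13 on that array. VIM, at -0.21, lay above the middle range (25th to 75th percentile) of such genes and ANXA1, at -5.13, below it. The other measured mesenchymal markers lay within theirs. The part of these markers in the values of that array was not tested.

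No member passed the test between the groups by limma. In bulk RNA of this kind, a lower signal from fewer cells that express a gene and one from less of its RNA per cell cannot be told apart. Over all 6 arrays 0 of the 9 members passed an adjusted p of 0.05, where 0% of the 17687 genes did, and the members' adjusted p-values lay between 0.663 and 0.782. Without siPGC1alpha replicate 1 again 0 of 9 passed, where 0% of all genes did, and each member had a limma adjusted p of 0.9998. At an unadjusted p under 0.05 the fit of 5 arrays held 0 of 9 members and 786 genes, or 4.44% of all genes, and the fit of 6 arrays held 0 members and 3 genes. The members' median difference without replicate 1 was -0.019, against 0.0080 over all genes. All 9 confidence intervals of that fit lay within a 2-fold difference in either direction, and the bound farthest from 0 was -0.44 for PDK4. PDK3 and PDK4 read near or under the negative control percentile, so their intervals describe signals close to background and may not bound a transcript change.

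**Figure D1:**
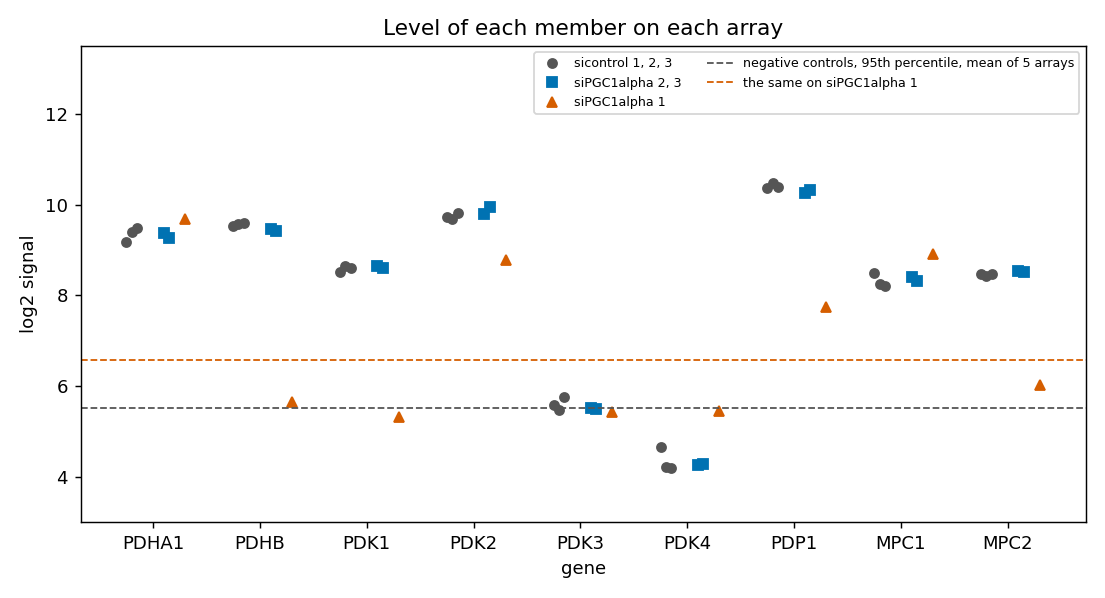
Log2 signal (vertical axis) of the 9 measured genes (horizontal axis) on each array. Grey circles are sicontrol 1, 2 and 3, blue squares siPGC1alpha 2 and 3, and orange triangles siPGC1alpha 1. The dashed lines mark the 95th percentile of the negative control probe sets, in grey as the mean of the 5 other arrays and in orange on siPGC1alpha 1. Circles and squares lie close together for every gene, while the triangle lies far below them for PDHB, PDK1, PDP1 and MPC2. PDK4 lies under the lines.

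PDHA1 and PDHB encode the alpha and beta subunits of E1, the component that decarboxylates pyruvate. PDHA1 read 9.17, 9.39 and 9.48 on the controls (mean 9.35 ± 0.16, SD, n = 3) and 9.38 and 9.27 on siPGC1alpha replicates 2 and 3. Both of these arrays lay inside the range of the controls. The difference, siPGC1alpha minus sicontrol, was -0.019 (SE 0.11, 95% confidence interval -0.28 to 0.24). PDHB read 9.53, 9.57 and 9.59 on the controls (mean 9.57 ± 0.029, SD, n = 3) and 9.45 and 9.43 on replicates 2 and 3. Both arrays lay below all 3 controls, but the difference of -0.12 (SE 0.071, interval -0.29 to 0.044) did not pass the test. As a ratio of signals it was 0.917, with an interval of 0.816 to 1.03.

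On siPGC1alpha replicate 1 the subunits of E1 parted. PDHA1 read 9.67 there, 0.33 above the control mean and the highest of its 6 arrays. PDHB read 5.64 there, under the 95th percentile of that array's negative controls, so only a bound can be given. Counted from that percentile, it was at least 7.99-fold lower than the control mean. Over all 6 arrays the differences were 0.097 (SE 0.23) for PDHA1 and -1.39 (SE 1.04) for PDHB.

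The 4 kinase genes gave differences of both signs on replicates 2 and 3. PDK1 read 8.52, 8.65 and 8.61 on the controls (mean 8.59 ± 0.070, SD, n = 3) and 8.65 and 8.59 on replicates 2 and 3, for a difference of 0.031 (SE 0.078, interval -0.16 to 0.22). PDK2, a kinase expressed in most tissues, read 9.72, 9.70 and 9.82 on the controls (mean 9.75 ± 0.067, SD, n = 3) and 9.80 and 9.95 on those replicates. Replicate 3 was the highest of the 6 arrays for PDK2 and replicate 2 lay below the highest control. Its difference of 0.13 (SE 0.085, interval -0.075 to 0.33) was the largest above 0 among the members and did not pass the test.

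PDK3 and PDK4 read near or under the background of the array. PDK3 read 5.58, 5.47 and 5.75 on the controls (mean 5.60 ± 0.14, SD, n = 3) and 5.52 and 5.49 on replicates 2 and 3, with a difference of -0.092 (SE 0.099, interval -0.33 to 0.14). It exceeded the 95th percentile of the negative controls on 4 of these 5 arrays and not on siPGC1alpha replicate 3. PDK4 read 4.66, 4.21 and 4.18 on the controls (mean 4.35 ± 0.27, SD, n = 3) and 4.25 and 4.29 on replicates 2 and 3. It lay under that percentile on all 6 arrays, so a level above background was not shown. Its difference was -0.081 (SE 0.15, interval -0.44 to 0.28), the widest interval among the members. Replicates 2 and 3 lay above sicontrol 2 and 3 and below sicontrol 1, and with the replicate number as a block, which compares them with sicontrol 2 and 3, the difference was 0.074 (limma adjusted p = 0.865).

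Replicate 1 split the kinases as well. PDK1 read 5.32 there, under that array's negative control percentile, and was at least 4.07-fold lower than the control mean by the same bound. PDK2 read 8.77, with a deviation of -0.98, and PDK3 read 5.42, under the percentile. PDK4 read 5.45 there, above its values on the other arrays and also under that array's percentile of 6.57, so no fold is given for PDK3 and PDK4. The differences over all 6 arrays were -1.07 (SE 0.91) for PDK1, -0.24 (SE 0.36) for PDK2, -0.12 (SE 0.21) for PDK3 and 0.31 (SE 0.40) for PDK4.

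The profile of PDK4 over the 6 arrays, each value taken relative to the control mean, was closest to those of MYH11 (smooth muscle myosin heavy chain), AMER1 (a WNT pathway regulator) and MCHR2 (a receptor of melanin-concentrating hormone). Their root mean square differences from PDK4 were 0.047, 0.061 and 0.062 on the log2 scale, against a median of 0.38 over all genes. PDK4 lay under the negative control percentile on all 6 arrays, so its own profile is that of a background reading. The control means of the 3 genes were 6.34, 5.96 and 4.47, against percentiles of 5.38 to 5.56 on the controls. MYH11 and AMER1 thus read above background by this measure and MCHR2 did not. Shared regulation was not tested.

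Promoters of 3 members are shown because PDK4 is the known PGC-1alpha target among the kinases, PDK1 the known HIF-1 target, and PDHB the E1 subunit whose arrays lay below all controls. The sequences, 250 bases before to 50 after an annotated start, are from RefSeq on build GRCh38.p14, written 5′ to 3′ on the gene's strand. Capitals mark ACGTG or its complement CACGT, a form of the core of a hypoxia response element, and CCAAT or its complement ATTGG, the CCAAT box. Other forms of the hypoxia core, such as GCGTG, were not searched.
PDK4, chr7:95596467-95596766, minus strand: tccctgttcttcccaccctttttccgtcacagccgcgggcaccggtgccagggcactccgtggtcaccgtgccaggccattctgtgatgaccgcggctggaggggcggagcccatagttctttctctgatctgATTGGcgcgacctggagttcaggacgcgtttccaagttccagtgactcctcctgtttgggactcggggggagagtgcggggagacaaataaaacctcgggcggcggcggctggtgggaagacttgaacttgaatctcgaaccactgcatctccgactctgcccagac
PDK1, chr2:172555840-172556139, plus strand: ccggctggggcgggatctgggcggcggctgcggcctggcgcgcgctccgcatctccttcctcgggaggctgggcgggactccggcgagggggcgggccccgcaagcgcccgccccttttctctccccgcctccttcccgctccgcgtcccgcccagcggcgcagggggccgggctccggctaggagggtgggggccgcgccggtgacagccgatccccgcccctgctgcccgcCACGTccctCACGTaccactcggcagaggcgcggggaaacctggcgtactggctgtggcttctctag
PDHB, chr3:58433783-58434082, minus strand: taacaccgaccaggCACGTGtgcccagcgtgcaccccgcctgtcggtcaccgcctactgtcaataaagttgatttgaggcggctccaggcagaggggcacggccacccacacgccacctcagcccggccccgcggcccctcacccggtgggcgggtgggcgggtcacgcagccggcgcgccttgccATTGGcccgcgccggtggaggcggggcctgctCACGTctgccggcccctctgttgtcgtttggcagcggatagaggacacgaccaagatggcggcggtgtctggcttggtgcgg

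The PDK4 window held 1 CCAAT box and 0 copies of ACGTG on either strand. The PDK1 window shown held ACGTG or its complement at 2 places. The PDHB window held them at 2 places, 1 of them the palindrome CACGTG that also holds the letters on the other strand. PDK1 has a second annotated window, which held 0 copies. Over 14 windows of 9 of the listed genes (PDP1 was not analysed here), 5 windows held ACGTG on either strand. They belonged to PDHB, PDK1, PDK2, PDK3 and PDP2, and 21.4% of all 35116 promoter windows held these letters. The CCAAT box was found in 9 of the 14 windows, 1 for each gene, against 34.6% of all windows. The letters AGGTCA bound by nuclear receptors, and the longer AAGGTCA preferred by ERR receptors, which contains them, were in 0 of the 14 windows on either strand, against 13.8% and 3.92% of all windows. The NRF1 core CGCATGCG and the ETS core CCGGAAG were also in 0 of 14, against 2.02% and 10.3%. A match is a description of these letters and not a site, and the absence of a match says only that the letters are not in these windows.

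PDP1, the catalytic subunit of the calcium-stimulated pyruvate dehydrogenase phosphatase, lay below the controls on every siPGC1alpha array. It read 10.36, 10.48 and 10.38 on the controls (mean 10.41 ± 0.064, SD, n = 3) and 10.25 and 10.32 on replicates 2 and 3. The difference of -0.12 (SE 0.078, interval -0.31 to 0.061) did not pass the test, and as a ratio it was 0.918 with an interval of 0.807 to 1.04. On replicate 1 it read 7.74, 6.34-fold lower than the control mean, and over all 6 arrays its difference was -0.97 (SE 0.71).

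MPC1 and MPC2 together form the pyruvate carrier of the inner mitochondrial membrane. MPC1 read 8.49, 8.26 and 8.21 on the controls (mean 8.32 ± 0.15, SD, n = 3) and 8.40 and 8.32 on replicates 2 and 3, inside the range of the controls, with a difference of 0.042 (SE 0.10, interval -0.21 to 0.29). MPC2 read 8.47, 8.42 and 8.47 on the controls (mean 8.45 ± 0.025, SD, n = 3) and 8.54 and 8.52 on those replicates. Both lay above all 3 controls for MPC2, but the difference of 0.078 (SE 0.070, interval -0.089 to 0.25) did not pass the test.

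The carrier genes parted on replicate 1 as the E1 subunits did. MPC1 read 8.91 there, the highest of its 6 arrays and 0.59 above the control mean. MPC2 read 6.02, under that array's negative control percentile, and was at least 3.69-fold lower than the control mean. Over all 6 arrays the differences were 0.23 (SE 0.26) for MPC1 and -0.76 (SE 0.70) for MPC2.

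**Figure D2:**
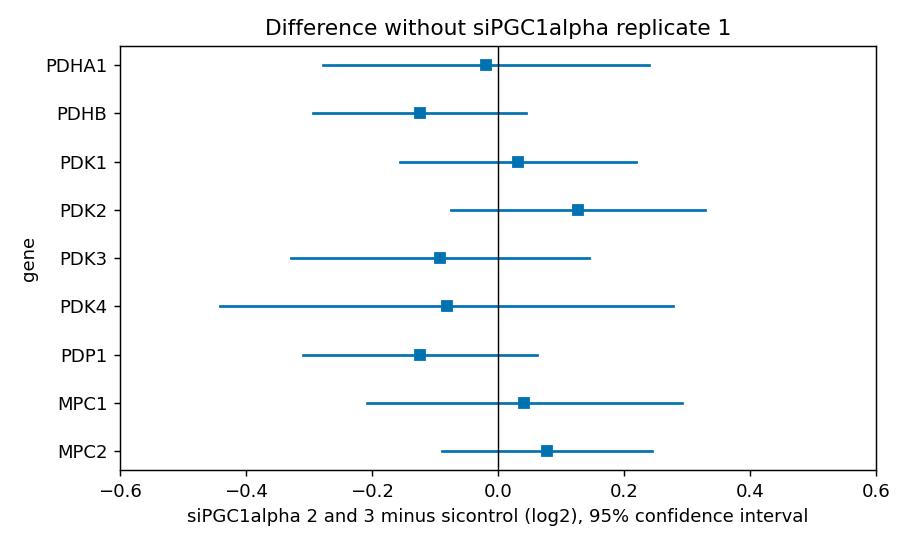
Difference of siPGC1alpha replicates 2 and 3 from the 3 sicontrol arrays on the log2 scale (horizontal axis) for each gene (vertical axis). Squares are limma estimates and lines their 95% confidence intervals. Every interval crosses 0, and the interval of PDK4 is the widest.

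Groups did not overlap for 3 of the 9 members without replicate 1. PDHB and PDP1 lay below all controls, 2 of 9 where 8.42% of all genes did so, and MPC2 lay above them, 1 of 9 where 11.3% did so. Over all 6 arrays, which hold the same replicates 2 and 3, PDHB and PDP1 lay below all controls, where 1.85% of all genes did. That count includes replicate 1, on which 6 of 9 members read below their control mean, as did 38.2% of all genes. Genes as bright as PDHB and PDP1 mostly lay below there, with 75th percentiles of -0.23 and -0.93. The share of 1.85% was not counted among such bright genes alone. None of these 3 members passed the test across genes.

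Partner genes were also compared within each array, which removes any scaling shared by a whole array. These 6 pairs were chosen after their values were seen, and only changes between arrays are read, since levels of different probe sets are not comparable. PDHB minus PDHA1 was 0.36, 0.18 and 0.11 on the controls and 0.073 and 0.15 on siPGC1alpha replicates 2 and 3, and MPC2 minus MPC1 was -0.028, 0.17 and 0.26 on the controls and 0.13 and 0.20 on those replicates. In both pairs the groups overlapped.

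Of the 4 kinases set against the phosphatase PDP1, 2 gave groups that did not overlap. PDK1 minus PDP1 was -1.85, -1.83 and -1.77 on the controls and -1.60 and -1.72 on replicates 2 and 3, and PDK2 minus PDP1 was -0.64, -0.79 and -0.56 on the controls and -0.45 and -0.37 on those replicates. PDK3 minus PDP1 (-4.79, -5.01 and -4.63 on the controls, -4.73 and -4.82 on replicates 2 and 3) and PDK4 minus PDP1 (-5.70, -6.28 and -6.20, then -6.00 and -6.03) overlapped. Since PDP1 itself lay below all controls on these arrays, 37.8% of the other 17686 genes lay above all controls when set against it, so the count for the kinases is no result about them.

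**Figure D3:**
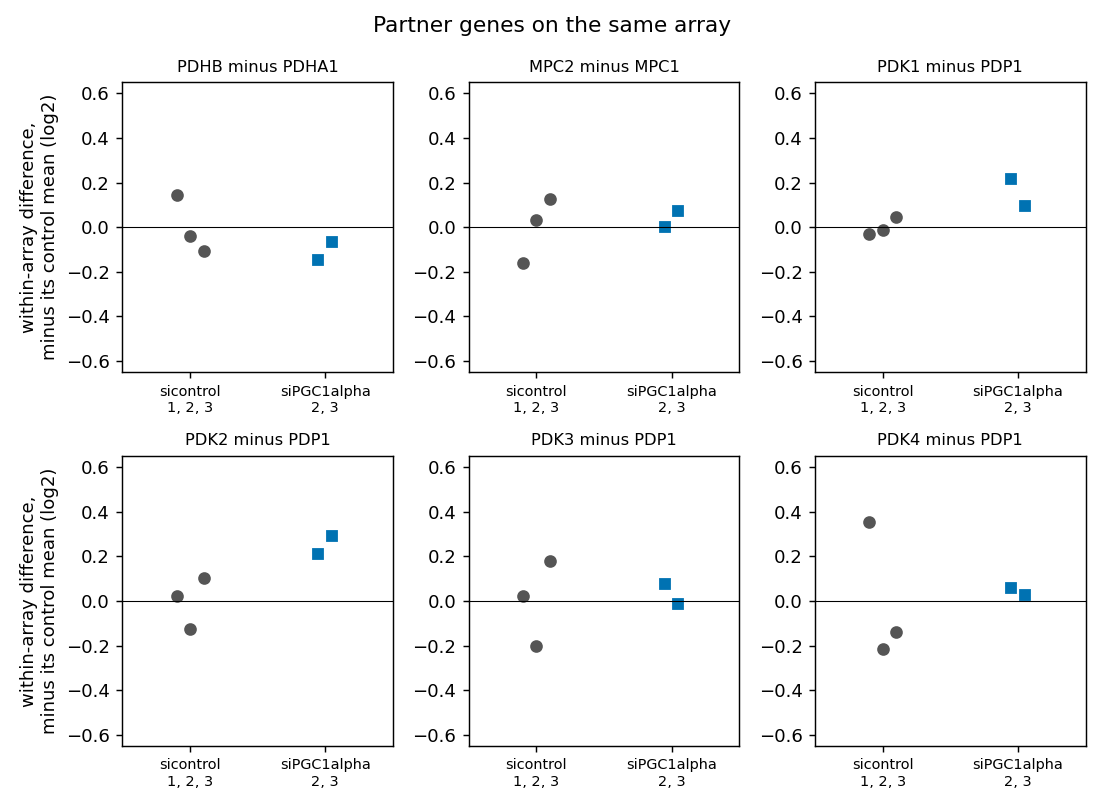
Difference in log2 signal between partner genes on the same array, minus its mean over the controls (vertical axis), for 6 pairs in 6 panels. Grey circles are the 3 sicontrol arrays and blue squares siPGC1alpha replicates 2 and 3; replicate 1 is not drawn. Squares lie above all circles for PDK1 minus PDP1 and PDK2 minus PDP1 and overlap with them in the other panels.

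The deviation of replicate 1 followed the control level of a gene over the whole array, and the members were read against it. Genes were split into 10 groups of equal size by control mean. The median deviation was 1.10 in the dimmest group and -2.13 in the brightest. The deviations of PDHB, PDK1, PDK3, PDK4 and MPC2 are those of readings under the negative control percentile on this array. PDK4, in the dimmest group, deviated by 1.10, and PDP1, in the brightest, by -2.66, so both lay within the middle range (25th to 75th percentile) of their groups, 0.67 to 1.44 and -3.42 to -0.93. PDK2 at -0.98 and MPC1 at 0.59 also lay within theirs. Below that range were PDHB, with -3.92 against a lower bound of -2.66, PDK1, with -3.27, and MPC2, with -2.43, both against -2.03, and PDK3, with -0.18 against 0.91. PDHA1 lay above it, with 0.33 against an upper bound of -0.23. PDHA1, PDHB and PDK2 belong to the same brightness group, whose median was -1.34.

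**Figure D4:**
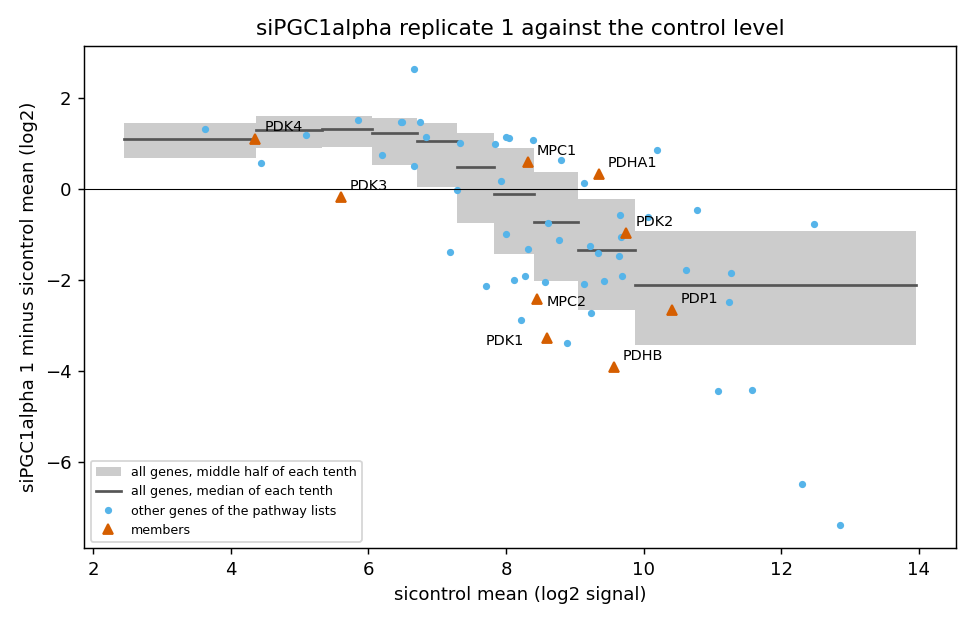
Deviation of siPGC1alpha replicate 1 from the control mean (vertical axis, log2) against the control mean (horizontal axis, log2 signal). Grey bands and lines show the 25th to 75th percentile and the median of all genes in 10 groups of equal size, blue dots the other genes of the pathway lists, and orange triangles the 9 members. PDHB, PDK1, MPC2 and PDK3 lie under their band and PDHA1 lies over its band.

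The other parts of the complex gave the same count of calls. DLAT (E2, the acetyltransferase), DLD (E3), PDHX (the E3-binding protein), PDPR (the regulatory subunit of the phosphatase) and PDHA2 (the testis form of E1 alpha) were all measured, and 0 of 5 passed in either direction with 6 or 5 arrays. DLAT read 8.67, 8.48 and 8.56 on the controls and 8.43 and 8.62 on replicates 2 and 3. PDHX read 8.96, 8.89 and 8.79 on the controls and 8.75 and 8.98 on those replicates. For both genes replicate 2 lay below all controls, and replicate 3 lay inside their range for DLAT and above it for PDHX. The members of this list with the smallest p were PDHA2, with a difference of -0.27 (SE 0.20) between readings that lay under the negative control percentile on all 6 arrays, and DLD, with 0.095 (SE 0.083). On replicate 1 DLD and PDPR deviated by -1.12 and -0.75, and DLAT and PDHX read 6.53 and 5.48, under that array's percentile.

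Genes next to pyruvate dehydrogenase in the pathway were counted in 5 further lists, and in each 0 genes passed in either direction with 6 or 5 arrays. The 3 genes of lipoate synthesis and transfer, which supply the cofactor of E2, had a median difference of -0.035 without replicate 1, with LIPT1, under the negative control percentile on all 6 arrays, at -0.096 (SE 0.21) and LIPT2 at 0.056 (SE 0.072). The 11 measured of 12 genes for other fates and sources of pyruvate had a median of -0.0091, with LDHC, the testis lactate dehydrogenase, at -0.35 (SE 0.085) and PKLR, the liver and red cell pyruvate kinase, at -0.13 (SE 0.10). LDHC read 6.25, 6.14 and 6.18 on the controls and 5.77 and 5.93 on replicates 2 and 3, below all controls (limma adjusted p = 0.9998), and 6.94 on replicate 1. The 9 genes of the sister complexes for 2-oxoglutarate and branched-chain ketoacids had a median of 0.014, with DBT at 0.15 (SE 0.094) and OGDHL at -0.13 (SE 0.13).

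In the tricarboxylic acid cycle 12 of 15 enzyme genes were measured, with a median difference of 0.049 and 9 above 0, against a median of 0.0080 over all genes, of which 53.5% lay above 0. IDH3A, a subunit of isocitrate dehydrogenase, differed by 0.12 (SE 0.076) and SDHC, a subunit of succinate dehydrogenase, by 0.084 (SE 0.075). The 11 factors known to act on PDK genes had a median of 0.019. Among them FOXO1, which activates PDK4 in muscle and liver, read 5.09, 5.11 and 5.10 on the controls and 5.40 and 5.34 on replicates 2 and 3, a difference of 0.27 (SE 0.071, limma adjusted p = 0.9998). FOXO1 lay above all controls on all 3 siPGC1alpha arrays, with 6.29 on replicate 1, and it lay under the negative control percentile on each of the 6. Its deviation of 1.19 on replicate 1 lay within the middle range of its brightness group, 0.90 to 1.61. Without replicate 1, 11.3% of all genes lay above all controls, and the share over all 6 arrays was not counted. PPARA, a nuclear receptor that induces PDK4, differed by -0.12 (SE 0.082).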

How the data were processed

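Total RNA (10 ng per sample) was labelled with a low-input kit per the labels' protocols. The deposited log2 signals, 1 column per sample, were normalized by the authors by a method not given in the sources used here, and the log2 scale was read from their range. A further deposited table of 6 columns matching no sample was not used. Of 24320 probe sets, 17709 carried 1 gene symbol, 0 several and 6611 none, and all 17709 gene identifiers were found in RefSeq. Where several probe sets shared a gene (20 genes), that with the highest mean was kept, leaving 17687 genes, with no filter on dim genes. The comparison used lmFit and plain eBayes of limma 3.58.1 (R 4.3.3) over all genes and 6 arrays, and again without siPGC1alpha replicate 1, with Benjamini-Hochberg adjustment at 0.05 and 95% intervals. The fit was tested on simulated data. Their spread was taken from the fit without siPGC1alpha replicate 1, so the simulation did not cover an array that deviates as that one does. The members and lists were chosen with earlier results of these data known. Named genes were the members, PPARGC1A, the 2 genes of each list with the smallest p without replicate 1 and the 3 profiles closest to PDK4. DLAT, PDHX, PDPR, CDH1, GRHL2, PGR, KRT18, KRT19, FOXA1, EPCAM and CD68, the partner pairs and the motifs were chosen after their values were seen. The number of arrays limits the precision. Alternatives were dim-gene filters, quantile normalization, median centring, the mean of probe sets, all probe sets that are not controls, trend and robust eBayes, array weights, an adjusted p under 0.1, the replicate number as a block, and each array left out in turn.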

Additional observations from a re-analysis of the deposited data

How the results depend on the processing

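In all 18 alternatives 0 genes passed as higher and 0 as lower, and the lowest limma adjusted p of a member was 0.439. For 5 members the sign turned when siPGC1alpha replicate 1 was left out. With each array left out in turn the difference ranged over -0.019 to 0.18 for PDHA1, -1.63 to 0.031 for PDK1, -0.46 to 0.13 for PDK2, -0.081 to 0.52 for PDK4 and -1.18 to 0.078 for MPC2, and the sign turned only without that array. The same 5 genes in that order had -0.041, 0.019, 0.10, -0.030 and 0.075 with array weights, which gave replicate 1 a weight of 0.010 against 1.62 to 3.29 for the others, and -0.036, 0.0074, 0.10, -0.072 and 0.062 without replicate 1 after quantile normalization. Without replicate 1 and with the replicate block, PDHA1, PDK2 and MPC2 had -0.11, 0.12 and 0.085, while PDK1 and PDK4, at -0.007 and 0.074, had the sign of all 6 arrays again, so for these 2 genes the sign also depends on which controls are compared. PDHB, PDK3, PDP1 and MPC1 kept their sign in every alternative that kept the gene. The members' median difference was -0.24 over 6 arrays and moved to -0.76 when genes under the 25th percentile or under the median were left out, since PDK3 and PDK4 then leave the list. With each array left out it ranged over -0.46 to -0.019. With the replicate block over 6 arrays PDHB differed by -1.39 and 0 genes passed. Deviations of samples sharing a number correlated at -0.25, -0.18 and -0.086. The siPGC1alpha deviations were taken from a mean that includes replicate 1, so these values cannot decide whether the numbers pair the samples. The main fit did not pair them. With no detection call, the negative control probe sets were the only measure of background. Their 95th percentile was exceeded by 7 of 9 members on all of the other 5 arrays, as by 13164 of all 17687 genes. On replicate 1 it was exceeded by 4 of 9 members and 11694 genes, and PDHB, PDK1, PDK3, PDK4 and MPC2 did not exceed it.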
